A study of Mus musculus with 20 samples.

Results

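The miRNA levels of the pressure-overloaded mouse heart were compared between its late and its early days. All hearts in this comparison had transverse aortic banding (TAB), a surgical narrowing of the aortic arch against which the left ventricle must pump. The mice were male C57BL/6J, 8 weeks old at surgery, with no genetic change or drug named, and the left ventricle was taken on day 3, 5, 7, 14 or 28. The TAB hearts of days 14 and 28 (2 samples, 4 arrays) formed the late group and those of days 3, 5 and 7 (3 samples, 6 arrays) the early group, which together are 10 of the 20 arrays of the series. The other 10 arrays held RNA of sham-operated hearts of the same days. They were used only to compare and test the late minus early difference of TAB against that of sham. For the day 14 TAB arrays the title gives 14 days and the condition label 15, and the title was followed. The 2 arrays of a day are technical replicates according to the methods and were averaged, and no source says how many hearts gave the RNA of a sample.

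MiRNAs are short RNAs cut from hairpin precursors. Loaded into Argonaute proteins, they pair mainly through the seed near their 5′ end with messenger RNAs and lower the stability or translation of those targets. A hairpin can release a mature strand from each arm, and in the naming of this array the star marks the arm that was considered the lesser one. In the heart, muscle miRNAs such as miR-1a, miR-133a and the miR-208 and miR-499 group are made by cardiomyocytes, while fibroblasts, endothelium and blood cells bring miRNAs of their own. Pressure overload is known to bring muscle growth, inflammation and matrix deposition to the ventricle.

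The sequences of miRNAs described in the results are given first, chosen for their late and early values or as family partners of such miRNAs. Each of the 17 looked up was found in RefSeq (GRCm38.p6), is written 5′ to 3′, and carries its seed, bases 2 to 8, in capitals. Both arms of the miR-21 hairpin were measured.
miR-21: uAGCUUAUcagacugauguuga
miR-21*: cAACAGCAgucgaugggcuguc
These lie at chr11:86584120-86584141 (minus strand) and chr11:86584082-86584103 (minus strand). The heart muscle miRNAs miR-208a-3p and miR-208b share their whole seed, and miR-499 has a closely similar one.
miR-208a-3p: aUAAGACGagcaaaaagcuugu
miR-208b: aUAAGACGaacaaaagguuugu
miR-499: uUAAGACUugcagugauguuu
The miR-208 strands lie at chr14:54949072-54949093 (minus strand) and chr14:54975710-54975731 (minus strand), and miR-499 is at chr2:155622893-155622913 (plus strand). Members of the let-7 family, miR-98 among them, have 1 seed in common.
let-7b: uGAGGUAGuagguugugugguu
let-7d: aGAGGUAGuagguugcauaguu
let-7e: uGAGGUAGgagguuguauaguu
miR-98: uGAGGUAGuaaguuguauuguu
Of these, let-7b is at chr15:85707325-85707346 (plus strand), let-7d at chr13:48536078-48536099 (minus strand), let-7e at chr17:17830366-17830387 (plus strand) and miR-98 at chrX:151913229-151913250 (plus strand). The pair miR-130a and miR-130b also shares a seed.
miR-130a: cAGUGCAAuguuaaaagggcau
miR-130b: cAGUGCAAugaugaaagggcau
They are encoded apart, at chr2:84741116-84741137 (minus strand) and chr16:17124071-17124092 (minus strand). The remaining sequences, no pair of which shares a seed, are those of miR-335-5p, which had the smallest p between late and early samples, of miR-26b, of both arms of miR-199a, and of 2 white blood cell miRNAs.
miR-335-5p: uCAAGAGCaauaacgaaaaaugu
miR-26b: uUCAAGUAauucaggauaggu
miR-199a-3p: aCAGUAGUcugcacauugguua
miR-199a-5p: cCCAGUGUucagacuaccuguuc
miR-142-3p: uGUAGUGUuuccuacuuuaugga
miR-223: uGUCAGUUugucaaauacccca
Among them, miR-335-5p is at chr6:30741314-30741336 (plus strand), miR-26b at chr1:74394324-74394344 (plus strand), miR-142-3p at chr11:87756903-87756925 (plus strand) and miR-223 at chrX:96242884-96242905 (plus strand). Both arms of miR-199a come from a pair of genes, with the 3p strand at chr1:162217883-162217904 (plus strand) and chr9:21496498-21496519 (minus strand) and the 5p strand at chr1:162217844-162217866 (plus strand) and chr9:21496537-21496559 (minus strand).

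Levels are given as log2 of the spot intensity after quantile normalization over the 10 TAB arrays, so that a step of 1 is a 2-fold difference, and a level is compared only with the same miRNA's level in other samples. Among the mouse probes, 158 were flagged everywhere, 928 had at least 1 usable spot and were tested, and 442 were found, with at least 2 of 3 spots free of a negative flag, on all 10 TAB arrays. The late arrays were on the whole brighter before normalization: raw intensities had 75th percentiles of 180 to 253 early and 233 to 288 late, and 490 to 538 against 525 to 648 miRNAs were found. The part of this brightness in the results was not tested. Heart muscle markers (miR-1a, miR-133a, miR-208a-3p, miR-499) were found on all 10 TAB arrays. Of the markers of other tissues, miR-137, miR-141, miR-200c and miR-203 were found on none, miR-122 (liver) on 3, miR-200b on 3 and miR-9 (brain) on 2, whereas miR-128, another brain miRNA, was found on 5 of 6 early and 4 of 4 late arrays and miR-206, a muscle miRNA, on all 10.

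No miRNA passed the test between late and early samples. In limma on the 5 averaged samples, 0 of 928 miRNAs reached an adjusted p under 0.05 (0% called), with 3 residual degrees of freedom, and 73 had an unadjusted p under 0.05, of which 31 (3.34% of those tested) were higher and 42 (4.53%) lower late. The smallest adjusted p was 0.308. The test compares 2 days with 3, so real differences between days of 1 group count as error in it. Both late samples lay above all 3 early samples for 112 miRNAs (12.1% of those tested) and below them for 133 (14.3%). Late minus early was above 0 for 456 of the 928. These shares are the background for the counts that follow. Most differences were small: the median absolute late minus early difference was 0.06, the median SE was also 0.06, and 8 miRNAs differed by more than 0.5. Those 8 were miR-208b, miR-98 and miR-1894-3p, which were higher late, and miR-21, miR-5099, miR-223, miR-375* and miR-142-3p, which were lower. The calls depended on how the arrays were scaled. With 75th percentile scaling in place of quantile normalization the median miRNA was at -0.15 late minus early, and 13 miRNAs were called higher and 5 lower, among them miR-208b, miR-98, let-7e, miR-21, miR-21*, miR-142-3p and miR-223.

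On the first 2 principal components of the 10 TAB arrays the repeated arrays of days 5, 7, 14 and 28 lay nearest to each other, whereas each day 3 array lay nearer to a day 7 array than to its repeat. The first component, with 26.5% of the variance, set day 5 at one end (-4.82 and -3.20) and day 28 at the other (2.44 and 3.12). The second, with 22.2%, held all 4 late arrays between 1.08 and 3.76 and the 6 early arrays between -2.87 and 0.99, so that late and early arrays did not overlap on it. Correlations of log2 levels across miRNAs, which are not independent replicates, were 0.993 to 0.998 between arrays of a day and 0.987 to 0.995 between days.

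**Figure D1:**
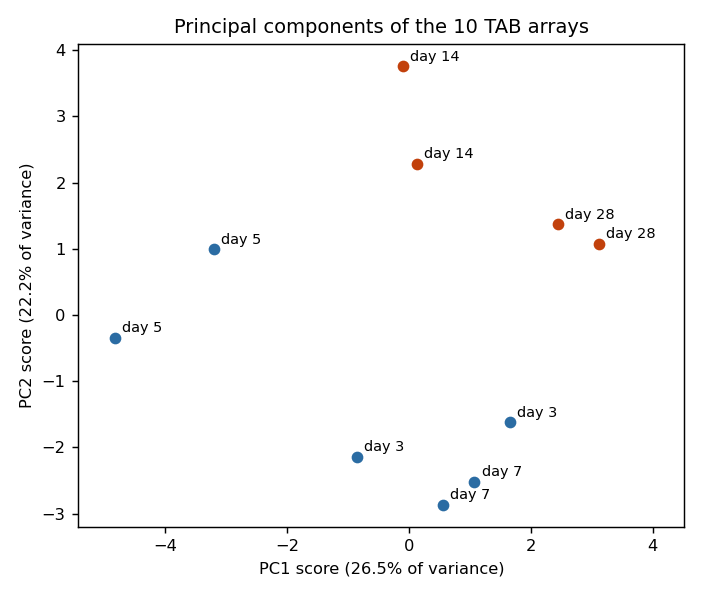
Scores of the 10 TAB arrays on the first principal component (horizontal, 26.5% of the variance) and the second (vertical, 22.2%), with early arrays in blue and late arrays in orange. The late arrays, at 1.08 to 3.76 on the second component, lie above every early array, and the day 5 arrays lie apart from the rest on the first.

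The largest higher difference was that of miR-208b, which lies in an intron of the slow myosin heavy chain gene Myh7 and is known to climb with that gene in stressed mouse hearts. Its level was 7.39 on day 3, 7.31 on day 5, 7.48 on day 7, 7.94 on day 14 and 8.39 on day 28. All 4 late arrays (7.90 to 8.44) lay above all 6 early arrays (7.23 to 7.54). Late minus early was 0.78 ± 0.15 (SE), a 1.71-fold difference, with an adjusted p of 0.509. Between the days it differed beyond the spread of repeated arrays (limma F-test, adjusted p = 0.000655).

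The other heart muscle miRNAs were mostly higher late as well, though by less. Of the 7 on the list (miR-1a, miR-133a, miR-133b, miR-208a-3p, miR-208b, miR-378 and miR-499), 4 had both late samples above all early ones, against 12.1% of all miRNAs, none had them below, and the median difference was 0.31 against -0.001 over all 928. The cardiomyocyte miRNA miR-1a was 14.77 on day 3, 14.34 on day 5, 14.45 on day 7, 14.86 on day 14 and 15.09 on day 28. Its late samples lay above the early ones by 0.46 ± 0.15 (SE), with an adjusted p of 0.597, although single arrays overlapped. miR-499, from an intron of Myh7b, was 9.38 on day 3, 9.20 on day 5, 9.38 on day 7, 9.43 on day 14 and 10.03 on day 28. Only its day 28 sample stood clear of the others, while the day 14 sample lay just above days 3 and 7. miR-133a, which restrains growth of heart muscle cells, differed by 0.31 ± 0.09 (SE), and miR-208a-3p, the partner of the fast myosin gene Myh6, by 0.16 ± 0.11 (SE). miR-378 was the member with the lowest difference, -0.06 ± 0.22 (SE). The summed normalized intensity of the 7 was 50411 to 68328 in the early samples and 70214 to 79734 in the late ones. This linear sum is set mostly by the brightest members, miR-1a, miR-133b and miR-133a (14.77, 14.05 and 13.69 on day 3, against 7.39 for miR-208b). In bulk tissue more muscle RNA per cell and a larger share of muscle cells cannot be told apart.

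The let-7 family, which is known to restrain growth and stem cell genes, was higher late in each of its 9 measured members under quantile normalization, under 75th percentile scaling and in the processed table. Both late samples were above all early ones for 5 of 9 and below them for none, and the median difference was 0.24. miR-98 had the largest difference of the family. Its level was 9.89 on day 3, 9.92 on day 5, 9.75 on day 7, 10.30 on day 14 and 10.59 on day 28. The 4 late arrays (10.25 to 10.68) did not overlap with the 6 early ones (9.69 to 9.94). Late minus early was 0.59 ± 0.11 (SE), or 1.51-fold, with an adjusted p of 0.509, and it was the member of the family that differed between days (adjusted p = 0.00198). let-7e was 10.49 on day 3, 10.67 on day 5, 10.48 on day 7, 11.03 on day 14 and 10.87 on day 28, a difference of 0.40 ± 0.09 (SE) with an adjusted p of 0.509. Its repeated arrays spread widely on days 3, 5 and 14, and single late and early arrays overlapped. Other members differed less: let-7b differed by 0.24 ± 0.08 (SE), let-7c by 0.16 ± 0.10 (SE), let-7d, with overlapping groups, by 0.31 ± 0.14 (SE) and let-7i by 0.04 ± 0.18 (SE). In sham hearts the 9 members had late minus early differences of 0.20 to 0.39, all of them above 0. Except for miR-98, these sham differences rested largely on sham day 14, the highest sham day of each other member. For let-7a that day was 12.73 against 12.02 to 12.30 on the other sham days, with day 28 at 12.18.

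**Figure D2:**
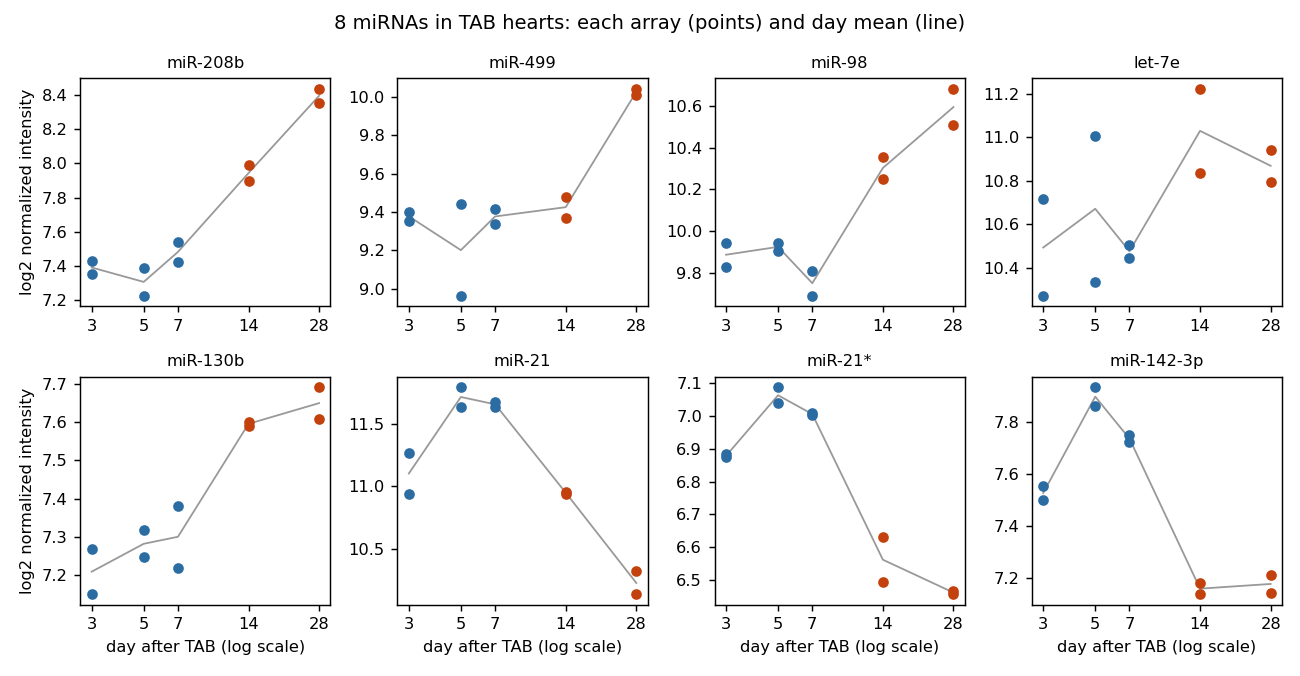
Log2 normalized intensity (vertical) of 8 miRNAs against the day after TAB (horizontal, log scale), with 1 point per array, early days in blue, late days in orange and a line through the day means. miR-208b, miR-98 and miR-130b have all late arrays above the early ones, and miR-21* and miR-142-3p have all late arrays below them.

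The smallest p-values on the higher side belonged to miR-335-5p and miR-130b. miR-335-5p, made from an intron of the imprinted gene Mest, was found on 1 of 6 early and 4 of 4 late arrays, so that its early level is mostly not above background and the size of its difference is uncertain. The normalized level was 6.45 on day 3, 6.44 on day 5, 6.42 on day 7, 6.77 on day 14 and 6.80 on day 28. Against that early level the fitted late minus early difference was 0.35 ± 0.04 (SE), with an adjusted p of 0.308, the smallest of the 928. miR-130b was 7.21 on day 3, 7.28 on day 5, 7.30 on day 7, 7.60 on day 14 and 7.65 on day 28, with a difference of 0.36 ± 0.05 (SE) and an adjusted p of 0.385. Its seed partner miR-130a differed by 0.39 ± 0.09 (SE), a nearly equal size, from 8.74, 9.03 and 8.94 early to 9.29 on both late days. Both miR-130 miRNAs are known to repress Pparg, a regulator of fat cell genes.

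The miR-15 family, whose members are known in mice to hold heart muscle cells out of the cell cycle after birth, had differences above 0 in all 6 members and a median of 0.28. Both late samples of miR-15a, miR-195 and miR-497 lay above every early sample. miR-195 was 9.06 on day 3, 8.79 on day 5, 8.87 on day 7, 9.14 on day 14 and 9.45 on day 28, and miR-497, its neighbour in 1 cluster, was 8.29 on day 3, 8.41 on day 5, 8.54 on day 7, 8.64 on day 14 and 8.98 on day 28. Their late minus early differences were 0.39 ± 0.13 (SE) and 0.40 ± 0.13 (SE), both with an adjusted p of 0.597. Other members differed by less, from 0.01 for miR-15b to 0.31 for miR-322. In sham hearts the 6 members had late minus early differences of -0.08 to 0.42, with a median of 0.10.

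Further miRNAs that the naming rule picked on the higher side were miR-26b (0.39 ± 0.08 (SE)), miR-140 (0.34 ± 0.09 (SE)), miR-3962 (0.32 ± 0.07 (SE)), the joint probe of miR-199a-3p with miR-199b (0.32 ± 0.08 (SE)), miR-676 (0.24 ± 0.04 (SE)) and miR-125b-2-3p (0.17 ± 0.04 (SE)). miR-140 is best known from cartilage, and here was 7.14 on day 3, 7.41 on day 5, 7.26 on day 7, 7.57 on day 14 and 7.65 on day 28. It differed between days (adjusted p = 0.00427) with both late days above the 3 early ones. The 12 miRNAs picked on this side had adjusted p-values of 0.308 to 0.597 between late and early, so none passed. Among them 7 differed between days, against 13.8% of all miRNAs. They were picked for separated groups on the same arrays, so this count is no separate support. Of these 7, miR-208b, miR-98 and miR-140 kept that call under all 14 alternatives tried, miR-130b lost it in 1 (without day 28), miR-199a-3p with miR-199b in 4, miR-3962 in 4 and miR-335-5p in 5. Without day 28 the call ended for all 4 of these, without day 7 for the last 3, without day 14 for miR-199a-3p and miR-3962, and without day 5 for miR-3962 and miR-335-5p. The miR-101 probe for miR-101a and miR-101c was also higher late, at 0.47 ± 0.13 (SE), with levels of 7.55 on day 3, 7.51 on day 5, 7.63 on day 7, 7.82 on day 14 and 8.25 on day 28.

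On the lower side the largest difference was that of miR-21, a miRNA abundant in activated fibroblasts and long studied in the overloaded heart. Its level was 11.10 on day 3, 11.71 on day 5, 11.65 on day 7, 10.95 on day 14 and 10.23 on day 28. The 2 late samples lay below all 3 early ones, with the lowest level on day 28, whereas the day 14 arrays (10.94 and 10.96) touched 1 day 3 array (10.94). Late minus early was -0.90 ± 0.29 (SE), so that the early level was 1.87 times the late one, with an adjusted p of 0.597, and the days differed (adjusted p = 0.00101). The opposite arm of the hairpin, miR-21*, showed the same order of days. It was 6.88 on day 3, 7.06 on day 5, 7.01 on day 7, 6.56 on day 14 and 6.46 on day 28, and all late arrays (6.45 to 6.63) lay below all early arrays (6.87 to 7.09). Its difference was -0.47 ± 0.07 (SE) with an adjusted p of 0.438, and the days differed (adjusted p = 0.00145). Both arms were highest on day 5 and lowest on day 28.

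The white blood cell miRNAs divided. miR-142-3p, made throughout the blood lineage, was 7.53 on day 3, 7.90 on day 5, 7.73 on day 7, 7.16 on day 14 and 7.18 on day 28. The late arrays lay at 7.14 to 7.21 and the early ones at 7.50 to 7.93, without overlap. Its difference was -0.55 ± 0.11 (SE) with an adjusted p of 0.509, and the days differed (adjusted p = 0.000655), although not without scaling of the arrays (adjusted p = 0.0766). miR-223, typical of neutrophils and other myeloid cells, was 8.05 on day 3, 7.72 on day 5, 7.43 on day 7, 7.09 on day 14 and 7.20 on day 28, highest on the first day sampled. Late minus early was -0.59 ± 0.19 (SE), and it also differed between days (adjusted p = 0.0178), although not once day 14 was left out (adjusted p = 0.137) or without scaling. The lymphocyte miRNA miR-150, in contrast, was 7.57 on day 3, 7.62 on day 5, 7.56 on day 7, 7.69 on day 14 and 7.85 on day 28. Both late samples were above the early ones, by 0.19 ± 0.06 (SE) with an adjusted p of 0.597. Single arrays overlapped, with those of day 14 at 7.53 and 7.86. With all 20 arrays normalized together miR-150 differed by 0.24 in TAB and 0.13 in sham. Of the 7 markers, 2 had both late samples below and 1 above, with a median difference of -0.02, and the summed intensity was 1203 to 1331 early, 1293 on day 28 and lower than any of these on day 14, so the groups overlapped. The median of this list relative to all miRNAs changed sign with 75th percentile scaling, to 0.02. The red blood cell miRNAs miR-451, miR-144, miR-16 and the probe for miR-486 had differences of 0.01 to 0.18, none with separate groups.

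The miR-17 family, a set of growth-linked miRNAs from related clusters, had mostly lower late levels. Of its 12 members, 4 had both late samples below all early ones (14.3% over all miRNAs) and none had them above, with a median difference of -0.11. miR-17 itself was 8.59 on day 3, 8.35 on day 5, 8.38 on day 7, 8.21 on day 14 and 8.16 on day 28, a difference of -0.25 ± 0.09 (SE) with an adjusted p of 0.597. The other members with both late samples below were miR-18a, miR-20a and miR-25. miR-20b and miR-106a, from the cluster on the X chromosome, were among the 5 of 12 members that were highest on day 5. On that day miR-20b was 7.79 against 7.16 to 7.22 on the other days, and miR-106a 8.30 against 7.63 to 7.85. Relative to the median of all miRNAs the direction of the family flipped with 75th percentile scaling, where its median stood 0.01 above that of all miRNAs. Without any scaling all 12 differences were above 0, as were 909 of the 928 tested.

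The other miRNAs picked on the lower side have less known roles, and miR-677*, miR-92b* and miR-1188* are star arms. miR-1196 was 8.80 on day 3, 8.85 on day 5, 9.03 on day 7, 8.52 on day 14 and 8.32 on day 28, with a difference of -0.47 ± 0.10 (SE) and an adjusted p of 0.509. miR-1899 differed by -0.34 ± 0.07 (SE), miR-1934 by -0.44 ± 0.12 (SE), miR-677* by -0.38 ± 0.11 (SE), miR-92b* by -0.34 ± 0.10 (SE) and miR-5100 by -0.31 ± 0.07 (SE). The smaller ones were miR-674 (-0.22), miR-1188* (-0.20), miR-484 (-0.18) and miR-485 (-0.16). Unlike miR-21*, miR-142-3p, miR-1196 and miR-1934, the other 8 of these 12 had differences above 0 when the arrays were not scaled at all. The 12 had adjusted p-values of 0.438 to 0.597, and 6 of them differed between days, against 13.8% of all miRNAs. These 12 were also picked for separated groups on the same arrays. The call of miR-21* held under all 14 alternatives, while that of miR-142-3p was lost in 1, of miR-1196 and miR-1899 in 3 each, of miR-1934 in 6 and of miR-92b* in 8, so that the last was lost more often than kept. Leaving out day 7 or day 28 ended it for miR-1196, miR-1934 and miR-92b*, day 14 for miR-1934 and miR-92b*, day 3 for miR-1934 and day 5 for miR-92b*.

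Lists of miRNAs tied to fibroblasts and vessels held members on both sides or overlapping groups. In the fibroblast and matrix list of 10, miR-21 and miR-21* were the members below, and the 3 miR-199 family members measured there were above. miR-199b*, for which all late arrays lay above all early ones, was 8.28 on day 3, 8.89 on day 5, 8.65 on day 7, 9.16 on day 14 and 9.01 on day 28, lowest on day 3, with a difference of 0.48 ± 0.19 (SE). miR-199a-5p differed by 0.38 ± 0.13 (SE), so that both arms of the miR-199 hairpins printed above were higher late. The collagen-repressing miR-29a, miR-29b and miR-29c had differences of -0.01, 0.22 and 0.04, and miR-214 0.05. Among the vessel miRNAs the endothelial miR-126-5p was 7.07 on day 3, 7.16 on day 5, 7.29 on day 7, 7.32 on day 14 and 7.78 on day 28, the highest on day 28, and differed between days (adjusted p = 0.00145, or 0.129 without day 28), while its partner arm miR-126-3p and the smooth muscle miRNAs miR-143 and miR-145 had overlapping groups with differences of 0.14, 0.05 and 0.02.

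**Figure D3:**
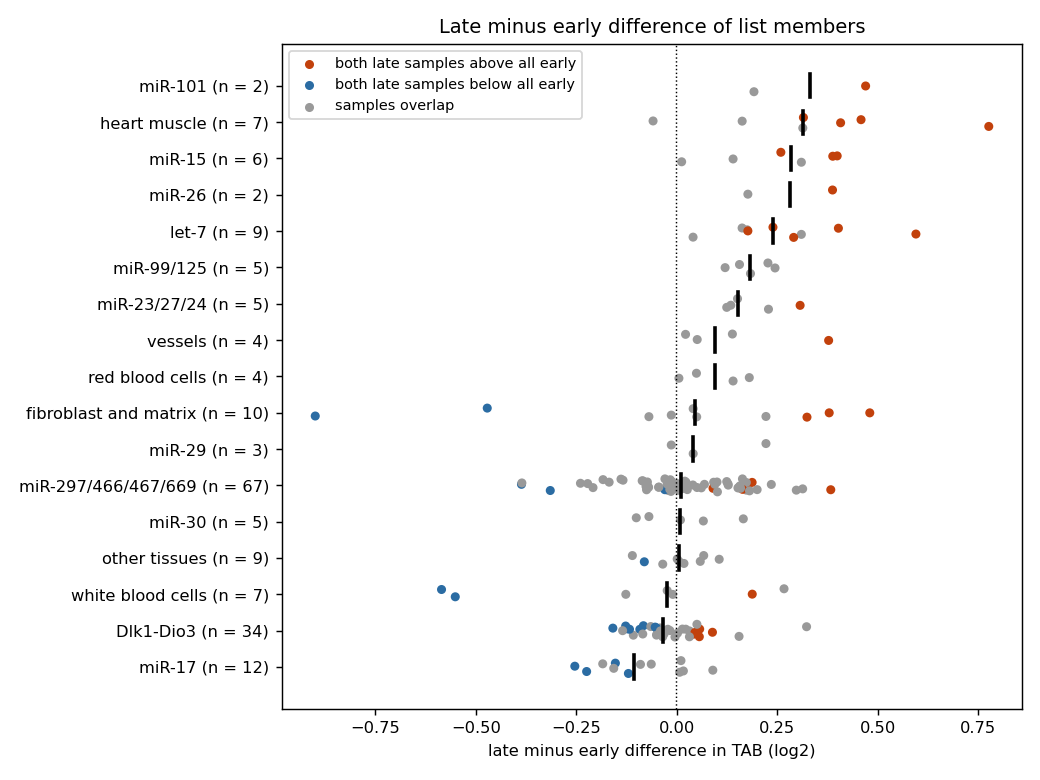
Late minus early difference in TAB (horizontal, log2) of each member of 17 lists (rows, ordered by median), with black bars for the median of a list and a dotted line for the median of all 928 miRNAs (-0.001). Orange points have both late samples above all early ones and blue points below; heart muscle, miR-15 and let-7 members lie mostly right of the line, and miR-17 members mostly left.

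Other heart-expressed families gave smaller differences under quantile normalization. The miR-23, miR-27 and miR-24 group had a median of 0.15 with 1 of 5 members separated, miR-23b, at 0.31 ± 0.09 (SE). The miR-99, miR-100 and miR-125 group had a median of 0.18 and the miR-30 family of 0.01, both with no member separated. Of the 16 measured miRNAs that other work has linked to a rise in hypertrophy, 14 had differences above 0, with 6 separated above and 1, miR-21, below. Of the 16 linked to a fall, 13 had differences above 0 and 6 were separated above. Over all miRNAs 456 of 928 had differences above 0, and 12.1% were separated above. The medians of the 2 hypertrophy lists were 0.19 and 0.18, both above 0. The order of the families depended on the scaling. With 75th percentile scaling the medians stood above that of all miRNAs by 0.56 for the miR-23, miR-27 and miR-24 group, 0.45 for the miR-99, miR-100 and miR-125 group and 0.35 for the miR-30 family, against 0.54 for heart muscle, 0.62 for let-7 and 0.49 for the miR-15 family. The fibroblast and matrix list stood at 0.42 and the vessels at 0.44 on that scale, against 0.05 and 0.10 under quantile normalization.

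Single days differed from each other in many miRNAs. A limma F-test over the 5 days on the 10 arrays, whose error is the spread between repeated arrays and which therefore compares RNA samples only, called 128 of 928 miRNAs (13.8%) at an adjusted p under 0.05, and 120 of them were found on all 10 arrays. The count was 165 without day 3, 76 without day 5, 73 without day 7, 83 without day 14 and 72 without day 28. Of the 128, 20 had both late samples above all early ones, 30 had them below and 78 had overlapping groups. Day 5 was the most frequent day of both extremes, with the highest level of 38 and the lowest of 34 of the 128. Over all 928 it was the highest day for 229 and the lowest for 204. Among the 128 the counts of the other days were 18 and 20 for day 3, 20 and 26 for day 7, 22 and 26 for day 14, and 30 and 22 for day 28.

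The miRNAs that stood farthest from the other days were named for each day. On day 3, miR-223 and miR-181a were highest, miR-181a at 9.46 against 8.70 to 9.22, and miR-199b* and miR-24 were lowest, miR-24 at 11.65 against 12.01 to 12.31. On day 5, miR-5126 was 11.93 against 10.90 to 11.14 and miR-20b was also highest, while miR-30e was 10.73 against 11.09 to 11.48 and miR-143, a smooth muscle miRNA, 11.27 against 11.62 to 11.95. On day 7, miR-491* was 8.57 against 7.64 to 8.00 and miR-375* 11.35 against 10.28 to 10.80, with miR-1907 at 9.73 and miR-5105 at 10.04 lowest. On day 14, miR-1894-3p was 12.17 against 10.58 to 11.42 and miR-494 10.99 against at most 10.44, with miR-5099 at 10.28 and miR-3474 at 9.29 lowest. On day 28, miR-499 and miR-126-5p were highest and miR-21 and miR-5109 (12.18 against 12.53 to 13.16) lowest. These 20 were chosen by the gap to the nearest day. For 13 of them the F-test no longer passed once that day was left out, and for the other 7, namely miR-223, miR-181a, miR-30e, miR-375*, miR-1894-3p, miR-5099 and miR-21, it still did.

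**Figure D4:**
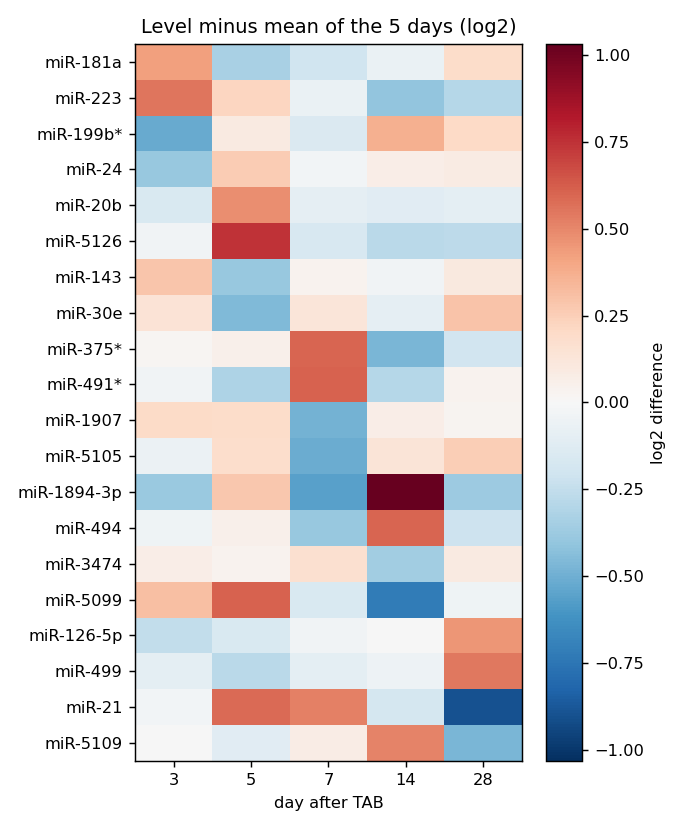
Heat map of the 20 miRNAs that stood farthest from the other days (rows) over the 5 days after TAB (columns), coloured by the level minus the mean of the 5 days (log2, red higher and blue lower). The strongest single cells are miR-1894-3p on day 14, high, and miR-21 on day 28, low.

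Several heart families shared their lowest level on day 5. This day was the lowest for 22.0% of all 928 miRNAs, but for 6 of 7 heart muscle miRNAs, 5 of 5 of the miR-99, miR-100 and miR-125 group, 4 of 5 of the miR-30 family, 3 of 3 of the miR-29 family and 3 of 4 vessel miRNAs. miR-30a was 11.59 on day 3, 11.02 on day 5, 11.58 on day 7, 11.33 on day 14 and 11.59 on day 28, miR-30c 10.36 on day 3, 9.70 on day 5, 10.39 on day 7, 9.87 on day 14 and 10.29 on day 28 and miR-29a 11.73 on day 3, 11.23 on day 5, 11.63 on day 7, 11.38 on day 14 and 11.66 on day 28. All 3 differed between days (adjusted p = 0.00325, 0.0196 and 0.0123), though the calls of miR-30a and miR-29a ended without day 5, and that of miR-29a also when the prior variance followed intensity. The let-7 and miR-17 families had 2 of 9 and 2 of 12 members lowest on this day. With 75th percentile scaling the counts were 6 of 7, 5 of 5, 5 of 5, 3 of 3 and 3 of 4, against 9.59% of all miRNAs. That low share came with the shift of the median miRNA under this scaling. After centring on the median the counts were 7 of 7, 5 of 5, 5 of 5, 3 of 3 and 3 of 4, against 212 of 928. Without any scaling they were 7 of 7, 5 of 5, 5 of 5, 3 of 3 and 4 of 4, against 56.9%. The 2 day 5 arrays had 75th percentiles of raw intensity of 180 and 204, and no early or late TAB array was dimmer than the first of them. The part of this in the low values was not tested.

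To see whether the late values belonged to the banded heart, the same late minus early difference was taken in the sham hearts of the same days, with all 20 arrays normalized together. In a limma fit of the 4 groups, 0 of 928 miRNAs (0%) had a difference between TAB and sham at an adjusted p under 0.05, and 72 had an unadjusted p under 0.05, 32 with the higher value in TAB and 40 with the lower. The smallest adjusted p, 0.108, was shared by miR-335-5p and miR-21*. miR-335-5p was found on 1 of 6 early TAB arrays and 7 of 10 sham arrays, so its value rests on an early TAB level mostly not above background. On this scale it differed by 0.41 in TAB and -0.05 in sham, a difference of 0.46 ± 0.07 (SE, adjusted p = 0.108). miR-21* differed by -0.53 in TAB and 0.04 in sham, a difference of -0.57 ± 0.09 (SE, adjusted p = 0.108). miR-208b differed by 0.90 in TAB and 0.15 in sham, a difference of 0.74 ± 0.21 (SE, adjusted p = 0.604), and miR-142-3p by -0.64 in TAB and 0.01 in sham.

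For the other heart muscle miRNAs the TAB and sham values lay closer together. miR-1a differed by 0.45 in TAB and 0.10 in sham, miR-133a by 0.27 and 0.15, miR-133b by 0.26 and 0.04, and miR-208a-3p by 0.17 and 0.03. miR-378 differed by -0.07 in TAB and -0.09 in sham. miR-499, which stood clear on day 28 of TAB, differed by 0.39 in TAB and 0.38 in sham, a difference of 0.00 ± 0.31 (SE, adjusted p = 0.995). These near-equal averages came from different days. The sham value of miR-499 rested on sham day 14 (9.90), while sham day 28 (9.32) lay below sham day 7 (9.46). In TAB the highest day was day 28.

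For some other named miRNAs the sham value was close to the TAB value. miR-1196 differed by -0.51 in TAB and -0.48 in sham, let-7e by 0.36 and 0.23, and miR-130a by 0.42 and 0.43. The sham values of let-7e and miR-130a rested on sham day 14. For miR-130a that day was 9.42 against 8.13 to 8.67 on the other sham days, whereas both late TAB days were higher. miR-130b, the seed partner of miR-130a, differed by 0.43 in TAB and -0.07 in sham, with a difference of 0.49 ± 0.16 (SE, adjusted p = 0.604). miR-21 differed by -0.82 in TAB and 0.20 in sham, and miR-223 by -0.67 and 0.23, both with an adjusted p of 0.604. Of the 12 miRNAs picked as higher late in TAB, 9 also had sham differences above 0, and of the 12 picked as lower, 8 also had sham differences below 0. The median sham difference of all 928 miRNAs was 0.01. Their shares above and below 0 were not counted, so the counts of 9 and 8 are not read as an excess. Some of the smallest p-values between TAB and sham came from sham hearts that differed while TAB hearts hardly did: miR-1195 by 0.04 in TAB and 0.68 in sham, miR-204* by -0.02 and 0.38, miR-18b* by -0.05 and -0.53, and miR-297c by 0.16 and -0.40.

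**Figure D5:**
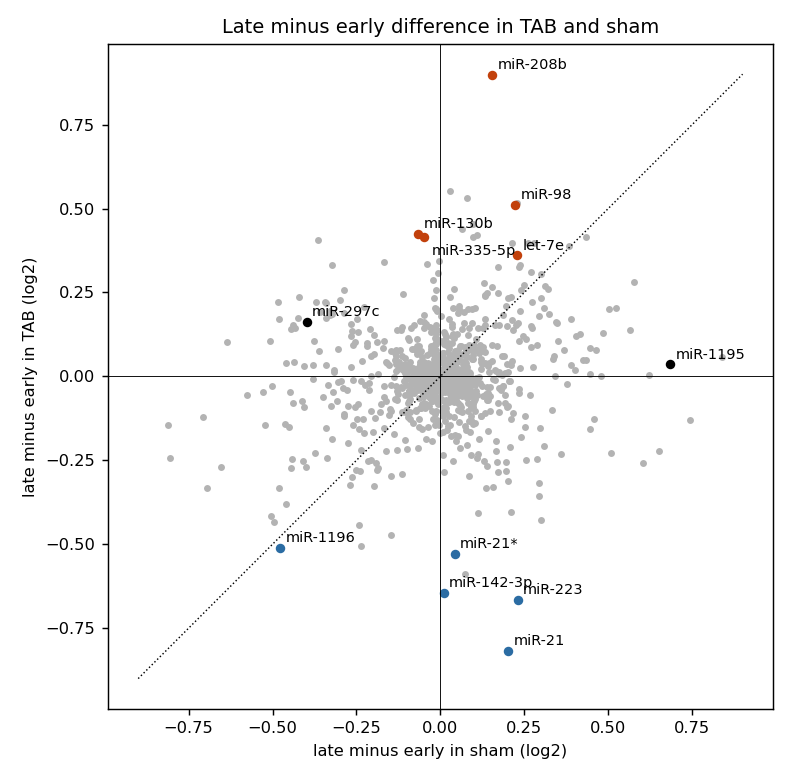
Late minus early difference (log2, 20 arrays normalized together) in TAB (vertical) against sham (horizontal) for 928 miRNAs in grey, with named miRNAs in orange where both late TAB samples lie above all early ones, in blue where below and in black where they overlap. miR-208b lies at 0.90 in TAB and 0.15 in sham, miR-21 at -0.82 and 0.20, and miR-1196 lies near the dotted line of equal differences.

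Among the 10 brightest probes the range of the day means went from 0.11 for miR-3473b to 0.75 for miR-1a. miR-690 gave 15.81 to 15.96 and miR-3473b 15.55 to 15.66. At most 1 probe of a TAB array was at the scanner ceiling of 65535, where saturation limits what a probe can show. Quantile normalization gives each of the brightest ranks a fixed value, so these narrow ranges are also set by ranks. Of the 10 brightest, miR-1a was the one with both late samples above the early ones, and miR-5100 and miR-3473 had both below, by -0.31 ± 0.07 (SE) and -0.34 ± 0.12 (SE). All 4 late arrays of miR-5100 had the same rank value, 14.56, so its SE holds no spread between late samples. At the dim end, 4 miRNAs (miR-26b*, miR-106b*, miR-190 and miR-688) were found on all 4 late arrays and on no early array, and 0 on all early and no late array. Their late levels were 1.04-fold to 1.11-fold above an early bound set for each miRNA, with adjusted p-values of 0.637 to 0.872 between late and early. For miR-26b* and miR-688 this bound was the early mean itself (6.53 and 6.46). For miR-106b* and miR-190 it lay slightly above the early mean (6.35 against 6.32, and 6.37 against 6.36).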

How the data were processed

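Total RNA of left ventricles was labelled with Cy5 and hybridized to Mouse & Rat miRNA OneArray slides, which the authors scanned and quantified with GenePix. The deposited raw intensity of each spot had no background subtracted, and the deposited spot flag, used as a score, marks spots that GenePix did not find. The deposited processed intensity table, which the authors made from the same arrays by removing miRNAs with negative flags on all spots, taking medians of spots and quantile-normalizing technical replicates, was an alternative. The files name no genome build.

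The 3 spots of each mouse probe were combined by their median, 158 probes flagged on every array were removed, and 928 were log2-transformed and quantile-normalized with limma 3.58.1 in R 4.3.3. Of the 928 probes, 18 name several miRNAs. The arrays of a day were averaged. Comparisons were fitted with lmFit and eBayes, two-sided, with Benjamini-Hochberg adjustment over all 928 and a threshold of 0.05. The fits of late against early (3 residual degrees of freedom) and of TAB against sham (6) used averaged samples, and the F-test between days (5) used arrays. Nothing says whether a sample held several hearts, so p-values measure the spread between these samples. An exact permutation test of 2 against 3 samples could not go below p = 0.1. Arrays give no counts, and their number limits the precision. The scripts were tested on simulated data.

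The members and lists were chosen with earlier results of these data known. Named were, per direction, the 12 smallest p-values among miRNAs whose late and early samples did not overlap and that were found on all late arrays (if higher) or all early arrays (if lower), the 4 smallest p-values against sham among those found on at least 10 arrays, per day the 2 farthest above and below the other days among those past the F-test and found on all TAB arrays, the extremes of each list and all members of lists of up to 10, and the 10 brightest. Alternatives were other scalings, normexp background correction with an offset of 50, other filters on flags, leaving out days or arrays, a trend of the prior variance with intensity, arrays as samples, a replicate block and a trend on log2 of the day.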

Additional observations from a re-analysis of the deposited data

How the results depend on the processing

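The count of 0 miRNAs between late and early TAB hearts held with quantile normalization over 20 arrays, with no scaling, with normexp, with either filter on flags, with the trend on log2 of the day, without any day and with either array alone (0 to 0 higher and 0 to 0 lower). When 1 late sample was left, it was assumed to vary like the others. Calls appeared with 75th percentile scaling (13 higher, 5 lower), in the processed table (9 and 5), with the variance trend (2 and 2) and with the 10 arrays as samples without (7 and 5) or with the replicate block (4 and 3). The variance trend called miR-208b, miR-335-5p, miR-21* and miR-142-3p, and the replicate block called these and miR-98, miR-130b and miR-1899. The median of all miRNAs shifted by -0.15 with 75th percentile scaling, by -0.15 in the processed table and by 0.18 without scaling, and the separated miRNAs then numbered 48 above and 324 below, 45 and 293, and 666 and 2, against 112 and 133. Without scaling the differences of miR-677* 0.050, miR-674 0.076, miR-484 0.11, miR-92b* 0.11, miR-5100 0.11, miR-1899 0.11, miR-485 0.11 and miR-1188* 0.20 were above 0.

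The F-test between days called 279 with 75th percentile scaling, 259 without scaling and 674 in the processed table, whose makers had normalized repeated arrays to each other. These held 99, 101 and 123 of the 128. Leaving out 1 day gave 72 to 165, and the replicate block gave 124, with 113 of the 128. The titles link same-numbered arrays of different days by no more than the number. Their deviations correlated at -0.14 to 0.35 over 10 pairs of days, 5 of them over 0.1, and what these arrays share was not tested.

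Against sham, 0 to 2 were called with 1 day or array left out: miR-221 and miR-698 without day 28, and miR-466e-5p with the second array alone. The variance trend called 2, miR-21* and miR-335-5p. Leaving out sham day 14, chosen after seeing the data, gave 0. More miRNAs were found on late arrays, so low levels are less well measured on early ones.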

Other observations

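Large miRNA clusters were described apart from the named families. The imprinted Dlk1-Dio3 region encodes many miRNAs in mice. Of 34 tested members, 8 were found on all 10 TAB arrays and 10 on none. Both late samples were above all early ones for 5 and below for 8, against 12.1% and 14.3% of all miRNAs, and the median difference was -0.03. The lowest was miR-485 (-0.16 ± 0.05 (SE)). The highest, miR-494, was 10.99 on day 14 and 10.44 or less on the other days.

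The related miRNAs of the miR-669, miR-467, miR-466 and miR-297 groups, many of them in a mouse repeat cluster within the gene Sfmbt2, numbered 67, and probes to such similar sequences may share signal. Both late samples were above all early ones for 5 and below for 3, with a median difference of 0.01 in TAB and of -0.31 in sham with 20 arrays normalized together. In TAB 12 members differed between days (13.8% over all miRNAs). The probe for miR-466b-5p and miR-466o-5p was 6.68 on day 3, 6.78 on day 5, 6.77 on day 7, 7.37 on day 14 and 6.88 on day 28, and miR-669b was 7.44 on day 3, 7.57 on day 5, 7.68 on day 7, 8.15 on day 14 and 7.57 on day 28, both highest on day 14. The member with the lowest difference, miR-466h-3p, was 9.47 on day 3, 9.16 on day 5, 9.26 on day 7, 9.06 on day 14 and 8.75 on day 28, a late minus early difference of -0.39 ± 0.13 (SE). In sham hearts it differed by -0.50.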
